A study of Mus musculus with 6 samples.

Results

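The SOX family of transcription factors was measured in mouse embryos of day 16, in whole kidneys in which miR-17~92, a cluster of microRNA genes, was deleted from nephron progenitors, and in control kidneys. The 10 genes described here, Sox4, Sox5, Sox6, Sox7, Sox8, Sox9, Sox11, Sox12, Sox17 and Sox18, were chosen by name, with earlier results of these data known. They are 10 of 13965 rows of the expression table. Mutant kidneys carried the Six2-TGC transgene and 2 floxed alleles of miR-17~92 (3 libraries). Control kidneys were labelled wild type with the genotype miR-17~92 flx/+ (3 libraries), so that both groups carried at least 1 floxed allele and the control label names no transgene. The Six2 promoter drives Cre recombinase in nephron progenitors, and cells that descend from them inherit the deletion. Stroma, endothelium and ureteric bud come from other lineages. In this design the deletion and the transgene cannot be told apart. Each of 3 litters gave 1 mutant and 1 control library.

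SOX proteins bind DNA through an HMG box related to that of the sex-determining factor SRY, and they bend it. They are sorted into groups by sequence, and members of a group often act redundantly in the same cells. Group C (Sox4, Sox11, Sox12) activates transcription in progenitors of many tissues. Group D (Sox5, Sox6, Sox13) lacks an activation domain and works with partners, best known with Sox9 in cartilage. Group E (Sox8, Sox9) acts in mouse kidney at the tips of the ureteric bud, downstream of the growth factor Gdnf and its receptor Ret, where both genes support branching. Group F (Sox7, Sox17, Sox18) directs the formation of blood and lymphatic vessels.

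The deposited values are CPM (reads of a gene scaled by the total of its library). Library totals of 43804667 to 54913325 reads, and the read counts given below, were worked out from the spacing of the CPM values and are not stated by the authors. With them 1 CPM stood for 44 to 55 reads. Genotype was tested with limma on log2(CPM + 0.5), mutant minus control, with litter as a block and Benjamini-Hochberg adjustment over 13766 rows. Calls were made where the adjusted p was below 0.05. By this test 1574 rows were called, or 11.4% of those tested, 1091 of them higher (7.93%) and 483 lower (3.51%) in mutant kidneys. Without the litter block 77 rows were called (0.559%). Cited1, a marker of the nephron progenitors in which Cre acts, stood at 10.9 ± 1.87 CPM in mutant kidneys and 47.5 ± 8.73 CPM in control kidneys (SD, n = 3 each). Six2, whose promoter drives Cre, fell less, to 38.6 ± 6.68 CPM in mutant kidneys, against 50.6 ± 7.95 CPM in control kidneys. Its groups overlapped, and its adjusted p was 0.00626 by limma paired by litter and 0.354 without the block. The row that holds Mir17hg, the host transcript of the cluster, joins 7 gene identifiers and was higher in mutant kidneys (46.0 ± 7.01 CPM, against 31.2 ± 7.18 CPM in control kidneys), and it does not measure the mature microRNAs. The RNA came from whole kidneys, in which fewer cells of a type and less RNA per cell cannot be told apart. The labels do not say whether a library came from 1 kidney or from pooled kidneys. The strand setting of the counting is not given in the sources used here, so reads from genes antisense to a Sox gene cannot be separated from its own.

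The cluster encodes 6 microRNAs with 4 different seeds, shown here because the deletion removes them and because their sites were searched in the Sox transcripts. RefSeq places them on the plus strand within chr14:115043684-115044496 (GRCm38.p6). Capitals mark the seed, bases 2 to 8, and microRNAs that share a seed stand next to each other.
miR-17-5p: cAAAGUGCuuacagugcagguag
miR-20a-5p: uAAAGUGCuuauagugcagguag
miR-18a-5p: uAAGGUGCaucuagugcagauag
miR-19a-3p: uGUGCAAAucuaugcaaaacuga
miR-19b-3p: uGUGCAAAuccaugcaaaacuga
miR-92a-3p: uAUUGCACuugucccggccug

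Sox9 and Sox6 rose in mutant kidneys when libraries were paired by litter, and neither was called without the block. Of the 10 genes, 2 rose, 0 fell and 8 did not pass. That is a share of 20%, against 11.4% of all tested rows, and with so few genes the shares were not compared further. Sox8 and Sox12 were lower and Sox7 was higher in all 3 litters without passing. Log2 changes of both signs occurred in groups C, E and F, with 6 positive and 4 negative in all, with a median log2 change of 0.03 over the 10 genes and 0.01 over all tested rows. Without the block 0 of the 10 were called by limma (0.363% of all rows were called higher) and 4 had an unadjusted p below 0.05, as did 11.3% of all tested rows. With the block 6 of the 10 did, against 29.2% of all tested rows. All 10 passed the filter of at least 1 CPM in at least 3 libraries.

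**Figure D1:**
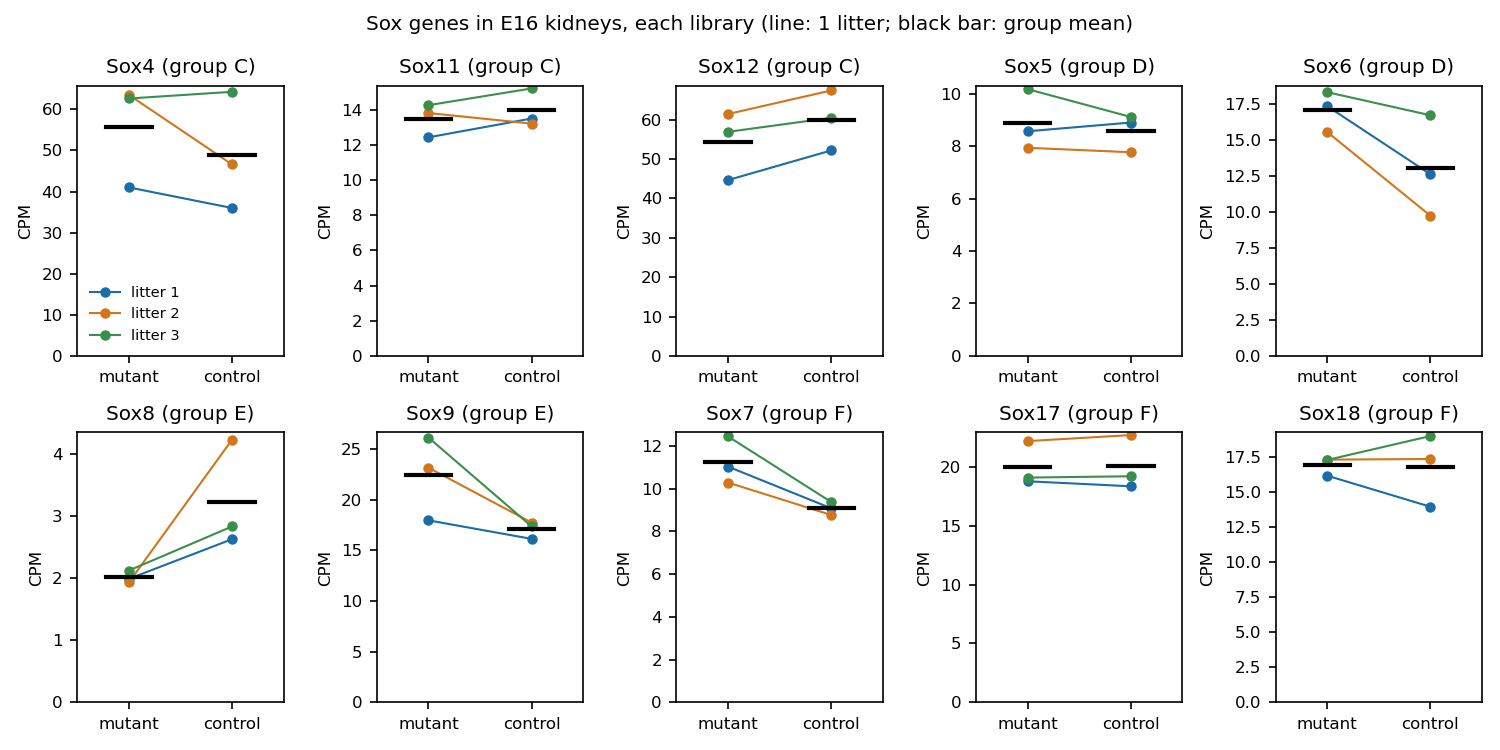
CPM of the 10 Sox genes in each library, with mutant kidneys on the left and control kidneys on the right of each panel. A line joins the 2 libraries of a litter and black bars are group means. Mutant libraries of Sox9 and Sox7 all lie above the control libraries, those of Sox8 all lie below, and the other 7 genes overlap between groups.

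Sox9, a group E factor of ureteric tips and of early nephrons, stood at 18.0, 23.2 and 26.1 CPM in the mutant libraries of litters 1, 2 and 3, against 16.1, 17.7 and 17.4 CPM in the control libraries. All 3 mutant libraries lay above all 3 control libraries. The control libraries spanned a narrow range, while the mutant libraries spread more widely. Over all tested rows, 10.2% were higher in mutant kidneys without overlap. The means were 22.4 ± 4.13 CPM in mutant and 17.1 ± 0.839 CPM in control kidneys (SD, n = 3 each), a fold of 1.29. The log2 change was 0.37 (SE 0.093, 95% interval 0.15 to 0.58), and limma's adjusted p was 0.0407 paired by litter and 0.343 without the block. Within litters the log2 difference was 0.15, 0.38 and 0.58. The call was lost without litter 1 (adjusted p = 0.0524 by limma) and without litter 3 (0.0838).

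Sox8, the other group E gene, had the fewest reads of the 10 and a change of the opposite sign. It stood at 1.99, 1.93 and 2.12 CPM in the mutant libraries, or 96, 106 and 99 reads. In the control libraries it stood at 2.63, 4.23 and 2.83 CPM, or 115, 186 and 140 reads. The groups did not overlap, which was so for 7.12% of tested rows in this direction. The log2 change was -0.54 (SE 0.16, 95% interval -0.92 to -0.17), with an adjusted p of 0.0687 by limma paired by litter and 0.278 without the block, so Sox8 was not called. The control library of litter 2 was the highest, and within litters the log2 difference was -0.33, -0.96 and -0.35. Without litter 3, Sox8 was called (adjusted p = 0.0332 by limma). The ratio of Sox9 to Sox8, which was not tested, was higher in the mutant of each litter. Per kilobase of transcript, Sox9 stood at 6.56, 8.71 and 8.94 times the level of Sox8 in mutant libraries 1, 2 and 3, and at 4.46, 3.05 and 4.45 times in control libraries.

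Sox6, a group D factor that works in cartilage, muscle and red cell precursors, stood at 17.3, 15.5 and 18.3 CPM in the mutant libraries and at 12.6, 9.72 and 16.7 CPM in the control libraries. It was higher in the mutant of each litter, as were 28.3% of all tested rows. The groups overlapped, because control library 3 lay above mutant library 2. Means were 17.1 ± 1.40 CPM in mutant and 13.0 ± 3.50 CPM in control kidneys (SD, n = 3 each), a fold of 1.33. The log2 change of 0.41 (SE 0.11, 95% interval 0.16 to 0.65) had an adjusted p of 0.0459 by limma paired by litter and 0.411 without the block. The difference was 0.44, 0.65 and 0.13 in litters 1, 2 and 3. The call was lost without litter 1 (adjusted p = 0.177 by limma) and without litter 2 (0.118), while without litter 3 the adjusted p was 0.00367. It was also lost with trimmed-mean scaling (0.0524) and with median-ratio scaling (0.0542).

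Sox5, the closest relative of Sox6, was not called, and whether the changes of the pair differ was not tested. It stood at 8.57, 7.94 and 10.2 CPM in the mutant libraries and at 8.90, 7.77 and 9.12 CPM in the control libraries, and the groups overlapped. The log2 change was 0.04, with a 95% interval from -0.18 to 0.26. Sox13, another group D gene that the table lists and that is not one of the 10, stood at 65.9 ± 8.24 CPM in mutant and 64.1 ± 5.24 CPM in control kidneys (SD, n = 3 each), with a 95% interval of the log2 change from -0.09 to 0.16. The other 9 Sox genes looked for (Sox1, Sox2, Sox3, Sox10, Sox14, Sox15, Sox21, Sox30 and Sry) had no row and were not analysed here.

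None of the group C genes was called. Sox12, often expressed together with Sox4 and Sox11, stood at 44.7, 61.5 and 56.9 CPM in the mutant libraries and at 52.2, 67.4 and 60.5 CPM in the control libraries. The mutant was lower in each litter, as in 22.2% of all tested rows, although the spread between litters was wider than the difference and the groups overlapped. The log2 change was -0.15 (SE 0.054, 95% interval -0.27 to -0.02), with an adjusted p of 0.114 by limma. Sox4, which supports survival of progenitors, stood at 41.0, 63.5 and 62.6 CPM in the mutant libraries and at 36.0, 46.6 and 64.3 CPM in the control libraries. Its row joins Sox4 with 1 further Ensembl identifier for which the reference gives no symbol, so reads of that gene cannot be separated. The mutant was higher in litters 1 and 2 and lower in litter 3, and the log2 change of 0.20 (95% interval 0.00 to 0.39) had an adjusted p of 0.169 by limma. Without litter 3 it was 0.31, with an adjusted p of 0.0111. Sox11, which with Sox4 shapes the early urinary tract in mice, stood at 12.4, 13.8 and 14.2 CPM in the mutant libraries and at 13.5, 13.2 and 15.2 CPM in the control libraries. Its log2 change was -0.05, with a 95% interval from -0.24 to 0.14.

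None of the group F genes was called. Sox7, which acts in endothelial precursors, stood at 11.0, 10.3 and 12.4 CPM in the mutant libraries and at 9.09, 8.77 and 9.38 CPM in the control libraries, with no overlap between groups. Its log2 change was 0.29 (SE 0.091, 95% interval 0.08 to 0.50), with an adjusted p of 0.0745 by limma paired by litter and 0.388 without the block, and the lowest adjusted p over the alternatives was 0.0738. Sox17, which marks arterial endothelium, stood at 18.8, 22.2 and 19.1 CPM in the mutant libraries and at 18.3, 22.7 and 19.2 CPM in the control libraries. The 2 libraries of a litter were close to each other, and litter 2 was the highest in both groups. The 95% interval of its log2 change ran from -0.17 to 0.16. Sox18, which starts lymphatic development, stood at 16.2, 17.3 and 17.3 CPM in the mutant libraries and at 13.97, 17.4 and 19.0 CPM in the control libraries. The groups overlapped, and the 95% interval of its log2 change ran from -0.18 to 0.23.

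**Figure D2:**
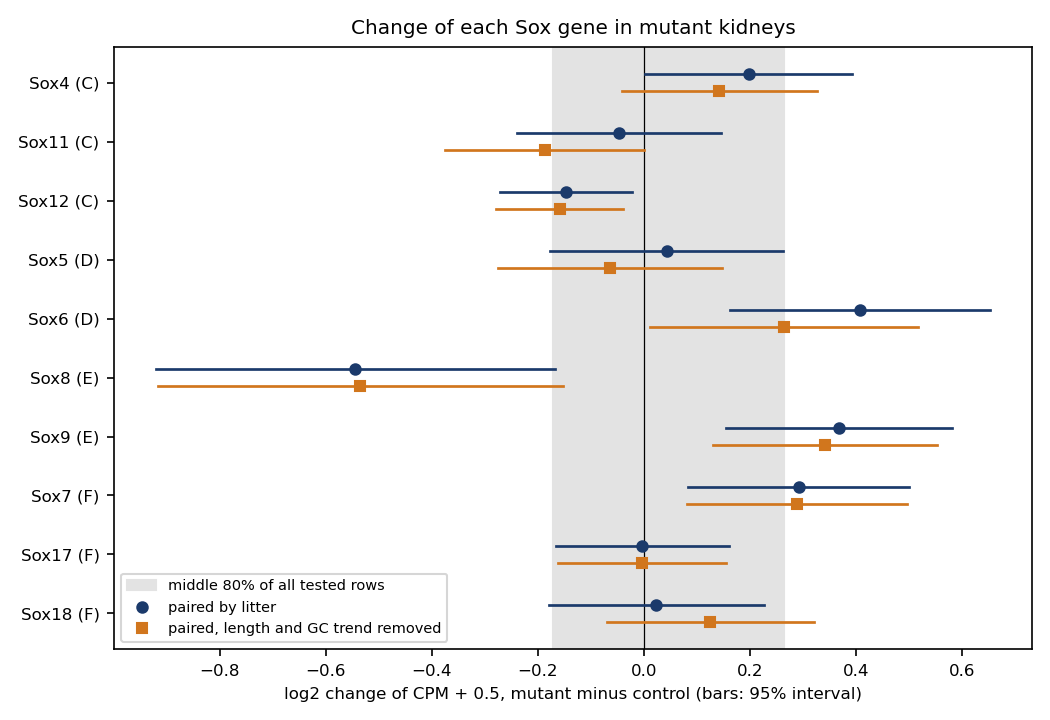
Log2 change (mutant minus control) of each Sox gene, ordered by SOX group, with 95% intervals from limma paired by litter, before (circles) and after (squares) correction of every library for transcript length and GC content. The grey band holds the middle 80% of all tested rows, from -0.17 to 0.26. Sox6, Sox9 and Sox7 lie above the band and Sox8 below it in the first fit, and Sox6 moves to 0.26 in the second.

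Transcript length moved with the change in mutant kidneys. Longer transcripts had higher log2 changes, with a Spearman's rho of 0.413 across rows, which are not independent of each other, and the median change of length deciles ran from -0.10 to 0.17. Sox5, Sox6 and Sox11, with longest transcripts of 7243, 8668 and 8311 bases, belong to the longest decile. The transcript of Sox6 with the longest coding sequence has only 2.903 kilobases. Its decile and its correction below rest on the longest transcript and depend on that choice. Relative to the median of its own decile, Sox6 differed by 0.24, Sox9 by 0.34, Sox7 by 0.30 and Sox8 by -0.54. With the block kept and a correction of every library for length and GC content, 838 rows were called (6.09% in either direction, 4.1% higher) and 0 of the 10 Sox genes by limma, with 5 at an unadjusted p below 0.05, against 23.5% of all tested rows. Sox9 then had a log2 change of 0.34 and an adjusted p of 0.0691, and Sox6 had 0.26 and 0.195. Sox8 stood at -0.53 (adjusted p = 0.1004), Sox7 at 0.29 (0.101) and Sox11 at -0.19 (0.214).

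**Figure D3:**
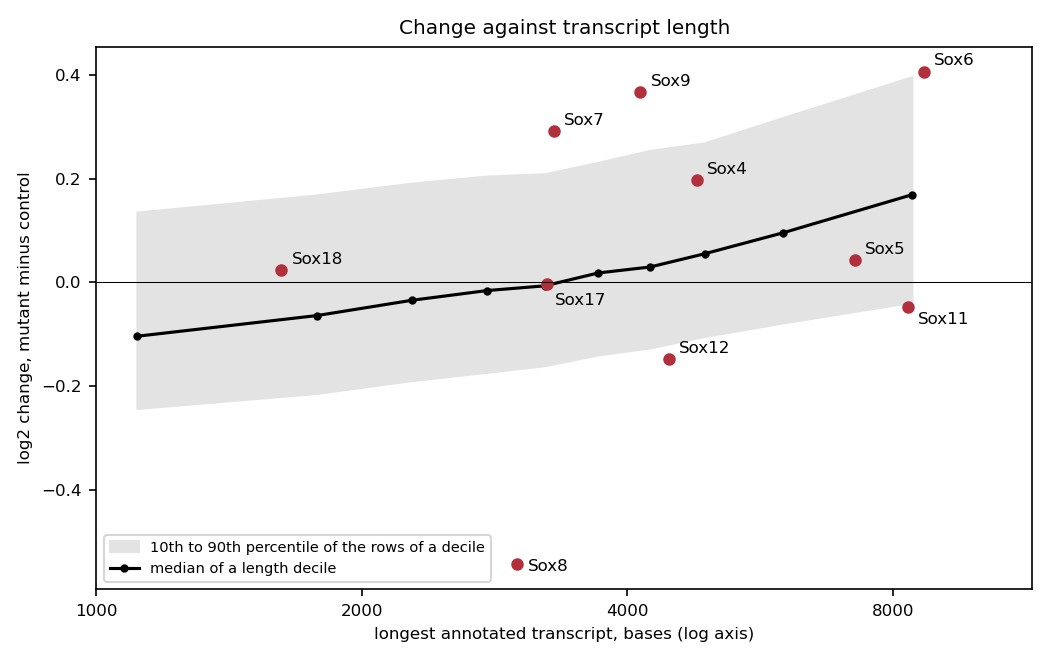
Log2 change (mutant minus control, paired by litter) of the 10 Sox genes against the length of the longest annotated transcript in bases (log axis). The black line joins the medians of 10 length classes of all tested rows and the grey band spans their 10th to 90th percentiles. Sox9 and Sox7 lie above the band at middle lengths, Sox6 lies just above its upper edge for the longest transcripts, Sox12 and Sox11 lie just below its lower edge, and Sox8 lies far below it.

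Levels of different genes can be compared only per length, here as CPM per kilobase of the longest annotated transcript. Of the 10 genes Sox12 was the highest, with 12.2 ± 1.95 CPM per kilobase in mutant and 13.5 ± 1.71 CPM per kilobase in control kidneys (SD, n = 3 each). It was followed by Sox4 (11.6 ± 2.66 in mutant, 10.2 ± 2.98 in control) and Sox18 (10.5 ± 0.405 in mutant, 10.4 ± 1.59 in control), and the ranges of these neighbours over the 6 libraries overlapped. Sox17 (6.17 ± 0.581 in mutant, 6.19 ± 0.710 in control) and Sox9 (5.42 ± 1.00 in mutant, 4.13 ± 0.203 in control) came next and overlapped with each other. Sox7 stood alone at 3.41 ± 0.332 in mutant and 2.75 ± 0.0922 in control kidneys. Sox6 (1.97 ± 0.162 in mutant, 1.501 ± 0.404 in control) overlapped with Sox11 (1.62 ± 0.115 in mutant, 1.68 ± 0.130 in control). Sox5 (1.23 ± 0.159 in mutant, 1.19 ± 0.0998 in control) and Sox8 (0.671 ± 0.0326 in mutant, 1.08 ± 0.290 in control) were the lowest and overlapped. Sox13 lay above all 10, at 17.8 ± 2.23 in mutant and 17.4 ± 1.42 in control kidneys. The order depends on the transcript chosen for Sox6, whose level with the transcript of the longest coding sequence was 5.87 in mutant and 4.48 in control kidneys.

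**Figure D4:**
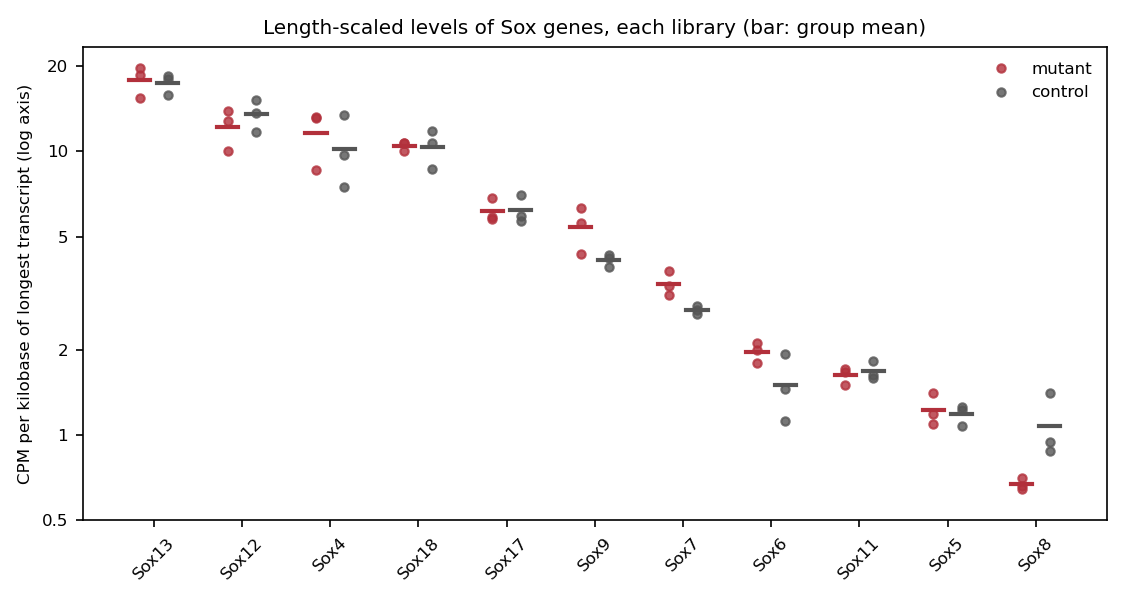
CPM per kilobase of the longest annotated transcript (log axis) of the 10 Sox genes and Sox13 in each mutant (left) and control (right) library, with group means as bars. Levels span from 0.671 for Sox8 to 17.8 for Sox13 by mutant means, and the 3 mutant libraries of Sox8 lie below its 3 control libraries.

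Sites for the deleted microRNAs were found in the 3' UTRs of 5 of the 10 Sox genes. The 7-base complements of the seeds, GCACTTT for miR-17-5p and miR-20a-5p, GCACCTT for miR-18a-5p, TTTGCAC for miR-19a-3p and miR-19b-3p and GTGCAAT for miR-92a-3p, were searched on the transcript strand of the longest annotated 3' UTR of each gene. Sox6 had 3 matches, Sox4 had 3, Sox12 had 2, and Sox5 and Sox11 had 1 each. Sox7, Sox8, Sox9, Sox17 and Sox18 had 0. Of 12678 tested genes with a 3' UTR, 35.8% held a match, and of the 3210 with a 3' UTR of at least 2515 bases, the median of the 10 Sox genes, 66.2% did. The density was 0.326 matches per kilobase in the Sox genes and 0.2996 in all tested genes. Sox6, one of the 2 genes that rose, thus holds matches, and Sox9, the other, holds none in the searched UTR. The 3' UTR searched for Sox6 has 6046 bases, more than its whole transcript with the longest coding sequence (2.903 kilobases). A match of these letters is not evidence that the microRNA binds there. The matches of the genes with more than 1 are shown, with the seed complement in capitals and flanking bases in lower case, named by gene, microRNA and position from the first base of the 3' UTR.
Sox6 miR-19 2313: tgtaattaatTTTGCACaaaggcaa
Sox6 miR-18a 5804: gaataccttgGCACCTTagctactt
Sox6 miR-19 5827: tttccccctcTTTGCACaaggtgct
Sox4 miR-19 2145: ccacatctttTTTGCACtttttttt
Sox4 miR-17/20a 2148: catcttttttGCACTTTtttttata
Sox4 miR-92a 2553: catccatcctGTGCAATatgccgtg
Sox12 miR-19 312: tccccctcacTTTGCACacgcccct
Sox12 miR-19 1237: acttgggtgcTTTGCACctcggtct
The matches of Sox4 at 2145 and 2148 overlap. All 3 matches of Sox6, the match of Sox4 at 2553 and the match of Sox12 at 312 are followed by an A. The median log2 change was 0.04 over the Sox genes with a match and 0.02 over those without, and 0.06 and -0.01 over all tested genes with and without. These medians were not matched for length, although longer transcripts had higher log2 changes and longer 3' UTRs held matches more often. An effect of the matches was therefore not tested.

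The lists of related genes were tested in the same fit, in which 43 of their genes were called paired by litter and 11 without the block. Over all tested rows 11.4% and 0.559% were called. The 43 include Cnmd, described next, and the lists were chosen with earlier results of these data known. Their count is therefore no evidence that the lists hold more calls than other genes. Of 14 genes that Sox9, Sox5 and Sox6 activate in cartilage 10 had a row and 9 passed the filter. Cnmd, a cartilage glycoprotein, passed it through the mutant libraries, so its values are given without a test, 2.96, 2.82 and 4.24 CPM in mutant and 0.365, 1.18 and 0.627 CPM in control libraries. Of the other 8 genes 0 rose and 2 fell paired by litter. The 6 that were not called all had positive log2 changes, from 0.11 for Hapln1 to 0.35 for Col9a2. The list thus did not move in 1 direction. Col11a2, a chain of type XI collagen, fell to 5.55 ± 1.502 CPM in mutant kidneys, against 16.3 ± 5.78 CPM in control kidneys (adjusted p = 0.00219 by limma, 0.0343 without the block). Col2a1, the main cartilage collagen, fell to 49.8 ± 11.9 CPM in mutant kidneys, against 65.1 ± 15.6 CPM in control kidneys (adjusted p = 0.0150, 0.480 without the block). Acan was below the filter, and Matn1, Matn3, Matn4 and Comp had no row.

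Of 11 tested genes of the Gdnf-Ret pathway, below which Sox8 and Sox9 act, 1 rose and 1 fell. Over all tested rows 7.93% rose and 3.51% fell, and with so few genes the shares were not compared. The median log2 change of the 11 genes was -0.03. Ret, the receptor of ureteric tips, rose to 66.4 ± 3.75 CPM in mutant kidneys, against 54.2 ± 4.85 CPM in control kidneys (adjusted p = 0.0164 by limma, 0.279 without the block, and 0.0659 with the length and GC correction). Etv4, a transcription factor induced by Ret, stood at 74.7 ± 4.45 CPM in mutant and 105 ± 12.02 CPM in control kidneys (adjusted p = 0.00208, 0.0749 without the block). Etv5, Spry1 and Dusp6 had log2 changes of -0.03, -0.04 and -0.00. Among ureteric bud and collecting duct markers 5 of 12 rose and 0 fell, among them Wnt9b (22.9 ± 2.31 CPM in mutant, 16.3 ± 1.57 CPM in control kidneys). Their summed level was 1210 to 1265 CPM in mutant and 1101 to 1126 CPM in control libraries. Of 12 early nephron markers 5 rose and 1, Fgf8, fell, and their summed level was 839 to 948 CPM in mutant and 772 to 830 CPM in control libraries. Without the block limma called 0 genes of either list. With the length and GC correction 4 ureteric and 3 early nephron markers rose and 0 fell. Log2 changes were negative for 3 ureteric markers (Wnt11, Hoxb7 and Aqp2) and for 5 early nephron markers. The part of these lists in the change of Sox9 was not tested.

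Part of the endothelial genes rose when paired by litter, and none of them was called without the block. Of 11 tested genes reported as targets of group F factors, 6 rose and 0 fell, with a median log2 change of 0.25. Prox1, which is not among the 6, passed the filter only through the mutant libraries. It stood at 1.10, 1.31 and 1.26 CPM in mutant and 0.662, 0.613 and 0.829 CPM in control libraries. Kdr, a receptor for vascular endothelial growth factor, rose to 168 ± 8.83 CPM in mutant kidneys, against 134 ± 1.02 CPM in control kidneys (adjusted p = 0.00651 by limma, 0.106 without the block). Cdh5, the cadherin of endothelial junctions, rose to 149 ± 6.50 CPM, against 123 ± 8.21 CPM in control kidneys (adjusted p = 0.00971, 0.222 without the block). Vcam1, an adhesion molecule that is also made by other cells, rose to 72.8 ± 2.42 CPM, against 48.3 ± 8.69 CPM in control kidneys (adjusted p = 0.00365, 0.0690 without the block). Tek, Tie1 and Notch1 were also called, Notch1 not with the length and GC correction (adjusted p = 0.233). Without the block limma called 0 of the 11, with 5 at an unadjusted p below 0.05, Prox1 among these 5. Of 12 endothelial markers 5 rose and 0 fell, of which Cdh5, Kdr, Tie1 and Tek are in the list of targets too. The other call, Flt1 (adjusted p = 0.0464), was lost with the length and GC correction (0.408). Of the markers that were not called, Emcn, Egfl7, Plvap and Eng had log2 changes of -0.02, -0.06, 0.02 and 0.03. Among the 12, without the block limma called 0, with 3 at an unadjusted p below 0.05. Their summed level was 1365 to 1421 CPM in mutant and 1249 to 1268 CPM in control libraries. Per 1000 CPM of these markers, Sox7 stood at 8.09, 7.24 and 8.98 CPM in mutant libraries and 7.27, 6.91 and 7.46 CPM in control libraries. Sox17 stood at 13.7, 15.6 and 13.8 CPM in mutant libraries and 14.7, 17.9 and 15.3 CPM in control libraries on this scale. It was lower in the mutant of each litter, but the summed markers were higher in every mutant library. A gene of equal CPM in both groups therefore comes out lower on this scale, and the log2 change of Sox17 in CPM was -0.003. Sox18 stood at 11.9, 12.2 and 12.5 CPM in mutant libraries and 11.2, 13.7 and 15.1 CPM in control libraries. The part of these lists in the level of Sox7 was not tested. Of 5 tested lymphatic endothelial markers, which include Prox1, 3 rose (Lyve1, Flt4 and Reln) and 0 fell. Without the block none of these 3 was called (adjusted p = 0.0906 for Lyve1, 0.213 for Flt4 and 0.240 for Reln by limma), and with the length and GC correction Reln was not (0.276). Pdpn, a membrane glycoprotein that podocytes make too, was lower in each litter without overlap (11.5 ± 0.872 CPM in mutant, 14.3 ± 1.19 CPM in control kidneys, log2 change -0.30) and was not called (adjusted p = 0.0859). The list had a summed level of 161 to 175 CPM in mutant and 129 to 143 CPM in control libraries.

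Of 3 tested genes reported as targets of Sox4 and Sox11, 1 fell and 0 rose. Dcx, a microtubule protein of young neurons, stood at 11.4 ± 2.73 CPM in mutant and 19.0 ± 2.73 CPM in control kidneys (adjusted p = 0.0159 by limma, 0.111 without the block). Tead2, a partner of Hippo signalling, and Ezh2, a histone methyltransferase, had log2 changes of -0.17 and -0.12 and were not called. Of the Schwann and neural crest markers 4 of 10 were tested and 2 fell, Ngfr and Elavl4, while Sox10, which defines these cells, had no row. The summed level of that list was 65.3 to 74.0 CPM in mutant and 78.8 to 83.4 CPM in control libraries, and its part in the change of Dcx was not tested.

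Other marker lists describe which cell types contributed RNA, and Sox reads were not assigned to cell types. Of 12 nephron progenitor markers 8 fell and 0 rose, with a summed level of 617 to 621 CPM in mutant and 853 to 871 CPM in control libraries. Without the block 5 fell. The list was chosen with earlier results of these data known, so this count is not a test of the cell type. Capn6 alone stood at 136 ± 6.51 CPM in mutant and 286 ± 6.89 CPM in control kidneys. Osr1, Sall1, Crym and Itga8 were not called, with log2 changes of 0.08, 0.12, -0.11 and 0.01. Of 12 stromal markers 5 rose and 0 fell, against 7.93% and 3.51% of all tested rows, and 3 rose without the block. Their summed level was 3688 to 4335 CPM in mutant and 3130 to 3433 CPM in control libraries. Col3a1 and Col1a1 had the highest levels in this sum and were not called (adjusted p = 0.0928 and 0.0518 by limma). Of 8 podocyte markers 0 rose and 2 fell, and 0 were called without the block (632 to 703 CPM in mutant, 646 to 761 CPM in control libraries). Among 8 erythroid and macrophage markers 0 were called by limma, with 2 at an unadjusted p below 0.05, and 0 without the block, with 1. Gonad markers summed to 4.05 to 5.46 CPM in mutant and 5.07 to 5.43 CPM in control libraries, with no row for the defining Amh and Nr5a1, and adrenal markers to 4.47 to 4.99 CPM in mutant and 4.49 to 5.64 CPM in control libraries. Of the cartilage and skeletal list 2 of 8 genes were tested, and 1, Col2a1, fell, while Matn1, Comp, Bglap, Myh3 and Acta1 had no row. Its summed level was 46.8 to 69.5 CPM in mutant and 58.1 to 88.7 CPM in control libraries.

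The rows most like Sox9 and Sox6 across the 6 libraries were found by Pearson's r of log2(CPM + 0.5) among 9834 single-gene rows with a mean of at least 10 CPM. For Sox9 these were Soat1 (r = 0.992), Arhgef15 (0.991) and Smg6 (0.989), and for Sox6 Tmod2 (0.996), Ptch1 (0.993) and Timp3 (0.993). These values are descriptions over 6 libraries that share genotype and litter, and the highest of so many correlations are large by their choice.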

How the data were processed

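Per the labels' protocols, Trizol was used for extraction and the TruSeq RNA kit from Illumina for the libraries. The submitters' processing notes name TopHat2 2.0.9, Picard, SAMtools and build NCBIM37. The counting program and annotation are not given in the sources used here. The authors deposited CPM values, in which 100% of values are whole numbers of reads within 0.01 reads if the library totals worked out from the values are right. Symbols, transcript lengths and 3' UTRs came from GENCODE M21 (GRCm38), another build than NCBIM37, so no gene coordinates were taken from it, and 13695 of 13965 rows matched a symbol. limma 3.58.1 in R 4.3.3 was run with the mean-variance trend on log2(CPM + 0.5), for rows that reached 1 CPM in 3 or more libraries, and was tested on simulated data. The litter numbers of the labels pair the samples: deviations of mutant and control libraries from their group means correlated at 0.619, 0.446 and 0.312 within litters and at -0.514 to 0.172 between litters. Deviations cancel within a group, so positive values within litters force lower ones between litters, which are no separate evidence of pairing. Replicates of a group differed by more than read sampling (a chi-square of 21.6 to 51.1 for each degree of freedom), and came from different litters. Named genes were the 10 Sox genes, any other Sox gene listed, the 3 called genes of each list with the smallest p (or the 2 most abundant), and for each called Sox gene the 3 rows most like it; others named beside them were chosen after their values were seen. Members and lists were chosen with earlier results of these data known.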

Additional observations from a re-analysis of the deposited data

How the results depend on the processing

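Of the 10 Sox genes 2 were called in the fit paired by litter, 0 with no replicate block, 1 with trimmed-mean and 1 with median-ratio scaling, 0 with the length and GC correction, and 0 to 3 when a litter, or a single library without the block, was left out. Over all rows 1574 were called, 77 with no replicate block (50 higher, 27 lower), 838 with the length and GC correction, and 23 to 2295 with a litter or library left out; without litter 1 it was 336. Of the genes in the lists 43 were called, 11 with no replicate block, and 7 to 54 with a litter or library left out. Trimmed-mean and median-ratio scaling gave 62.3% and 60.5% of calls as higher, against 69.3%. The length-scaled level of Sox6 was 5.87 in mutant and 4.48 in control kidneys with the longest coding sequence. Sox5 (-0.065) and Hba-a1 (0.049) changed sign with the length and GC correction. When a litter or library was left out, signs also changed for Sox4 (-0.0020 to 0.41), Sox5 (-0.053 to 0.12), Sox11 (-0.10 to 0.013), Sox17 (-0.077 to 0.086), Sox18 (-0.10 to 0.12), Sox13 (-0.037 to 0.14), Ddx4 (-0.084 to 0.27), Star (-0.25 to 0.053), Hba-a1 (-0.12 to 0.019) and Hbb-bt (-0.22 to 0.013), none of which was called with all litters. Pseudocounts of 0.1 and 1 and no filter on low CPM kept 2 Sox calls. With 8-base matches 4 Sox genes held a site. Count models listed as alternatives were not run, because the deposited CPM values hold too few low values to establish from those alone what 1 read is worth. With 96 to 186 reads per library, Sox8 has the largest counting error of the Sox genes.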
